A study of Mus musculus with 6 samples.

Results

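Mest, Peg10, Sgce, Nap1l5, Copg2, Ppp1r9a, Asb4 and Klf14 are 8 imprinted genes of mouse chromosome 6. They were taken from the 55416 genes of the count table by matching Ensembl identifiers to GENCODE names, and their levels were read in 3 libraries of WT EpiLCs and 3 of Oct6 KO EpiLCs against the median shift of the other genes of chromosome 6 below 100 Mb (GRCm39). They were chosen by imprinting and position, with their log2 fold changes in this KO against WT contrast in view, so their values in it are given as a description, without a test.

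EpiLCs (epiblast-like cells) are the formative pluripotent cells obtained from naïve mESCs. WT cells were the 46C mESC line, which carries a Sox1-GFP reporter, and KO cells were a single clone of that line with a homozygous insertion in the coding sequence of Oct6 (Pou3f1), so that genotype and clone cannot be told apart. Both were differentiated in fibronectin-coated dishes for 48 h in N2B27 with 1% KSR, bFGF and Activin A (12 ng/ml and 20 ng/ml per the labels). Total RNA was sequenced with a stranded kit, and library totals ran from 10995505 to 14680930 counts. Pou3f1 itself differed by a log2 fold change of −0.10 ± 0.11 (SE, edgeR's quasi-likelihood test, adjusted p = 0.57), and its count does not check an insertion that leaves a transcript. The summed level of 6 formative and general pluripotency markers was 2604 to 2886 CPM (counts scaled to library size) in WT and 2550 to 2690 CPM in KO libraries, most of it from Dnmt3b and Pou5f1. Of these markers the formative Fgf5 (log2 fold change 0.65, adjusted p = 3.8e-04) and Otx2 (0.92, adjusted p = 1.7e-04) and the general Sox2 (0.42, adjusted p = 0.028) rose in KO EpiLCs in edgeR's quasi-likelihood test, and their part in the values below was not tested.

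An imprinted gene is transcribed from the allele of 1 parent, as marked by DNA methylation that is set in the germ line at an imprinting control region and kept in the embryo by factors such as ZFP57 and TRIM28. Imprinted genes lie in clusters, in which paternally and maternally expressed genes share a control region, and many of them act in placental and fetal growth. On proximal mouse chromosome 6, Peg10 and Sgce are the paternally expressed genes of one cluster and Mest (Peg1) of another, while Nap1l5 is a paternally expressed retrogene farther along the chromosome. Copg2, Ppp1r9a, Asb4 and Klf14 are maternally expressed, some of them only in particular tissues such as the placenta. The counts do not separate the alleles, so a level below is the sum of both.

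The promoters of the paternally expressed genes are shown because they lie at, or close to, the germ line methylated regions of the clusters. Letters in capitals mark the word TGCCGC, the recognition word of ZFP57, on either strand (GCGGCA on the other). Sequences were read from GRCm39 with the strand of the gene, upstream of the canonical start in GENCODE, and the interval between Sgce and Peg10, whose canonical starts lie on opposite strands 198 bases apart, was read on the plus strand.
Mest, chr6:30737794-30738043, plus strand: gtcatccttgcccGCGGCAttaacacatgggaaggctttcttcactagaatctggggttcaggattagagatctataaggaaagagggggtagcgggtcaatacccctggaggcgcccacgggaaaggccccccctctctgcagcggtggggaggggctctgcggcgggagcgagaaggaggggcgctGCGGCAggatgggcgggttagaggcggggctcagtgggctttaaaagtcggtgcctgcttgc
Sgce-Peg10 interval, chr6:4747208-4747405, plus strand: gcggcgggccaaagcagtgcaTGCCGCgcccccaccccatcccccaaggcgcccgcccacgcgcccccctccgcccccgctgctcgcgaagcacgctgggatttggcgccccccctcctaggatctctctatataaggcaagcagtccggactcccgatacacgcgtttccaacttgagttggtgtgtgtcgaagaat
Nap1l5, chr6:58884062-58884311, minus strand: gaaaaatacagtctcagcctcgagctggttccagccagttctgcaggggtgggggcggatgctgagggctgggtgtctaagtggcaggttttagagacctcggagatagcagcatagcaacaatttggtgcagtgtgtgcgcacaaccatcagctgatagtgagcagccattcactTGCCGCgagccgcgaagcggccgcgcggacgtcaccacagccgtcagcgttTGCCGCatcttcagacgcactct

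The 250 bases upstream held the word in 5 of the 8 genes (Mest, Peg10, Sgce, Nap1l5 and Copg2), against 8.51% of 21757 protein-coding promoters of the same length. Mest and Nap1l5 held 2 copies each, and the copy of Peg10 and that of Sgce are the same bases, printed in the interval above. CG dinucleotides numbered 14 at Mest, 21 at Peg10, 22 at Sgce, 17 at Nap1l5, 19 at Copg2 and 18 at Klf14, against a median of 8 over all promoters, while Asb4 held 2 and Ppp1r9a none. The word TGCCGC itself holds a CG, and its share among promoters with a like CG count was not computed. The octamer ATGCAAAT, the word bound by POU factors such as OCT6, was in 0 of the 8 windows on either strand and in 1.49% of all promoters. A match describes the letters of a window only, and the absence of one says nothing about binding.

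Per length of the annotated exons, the levels of the 8 genes in WT EpiLCs ran over several orders of magnitude. Mest was the highest at 56.2 ± 8.38 RPKM (CPM per kilobase, SD, n = 3), followed by Peg10 at 36.9 ± 1.66 RPKM. Copg2 followed at 14.7 ± 1.37 RPKM. Ppp1r9a at 5.54 ± 1.25 RPKM and Nap1l5 at 5.47 ± 1.60 RPKM overlapped over libraries and are not ordered. Sgce was at 1.29 ± 0.137 RPKM, and Klf14 and Asb4 were at the edge of detection. The order was the same with the length of the canonical transcript, but the distance of Mest from the others was larger, at 359.6 RPKM against 37.4 RPKM for Peg10. There the overlapping neighbours were Nap1l5 at 5.47 RPKM and Sgce at 4.41 RPKM instead.

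**Figure D1:**
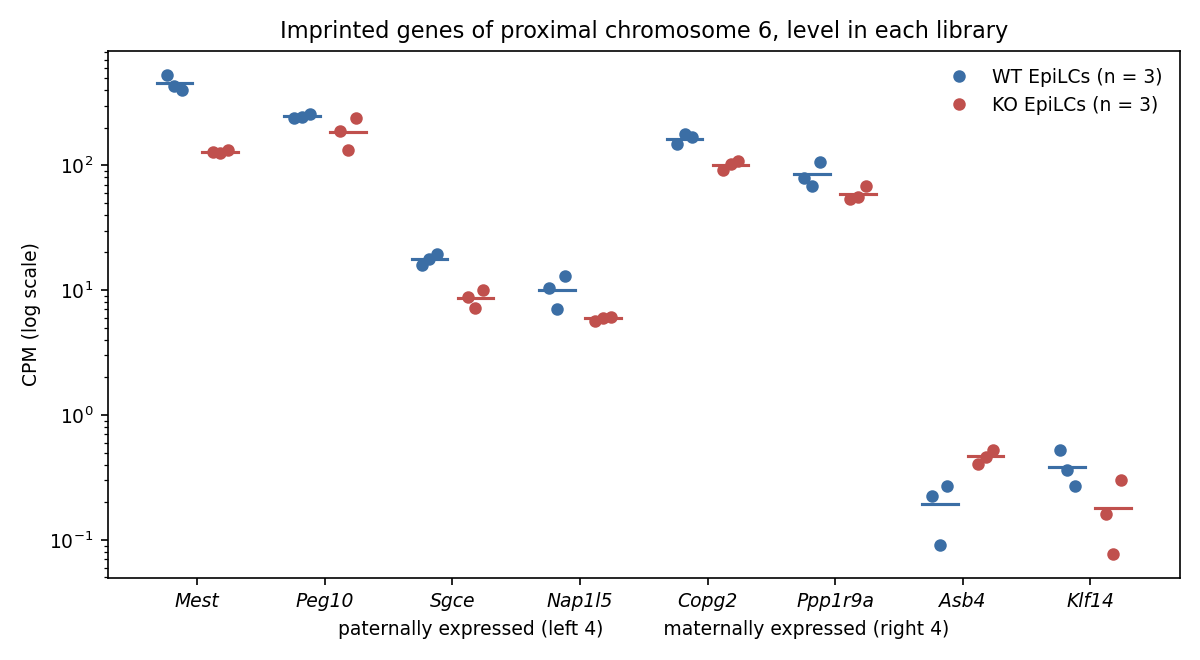
Level of each of the 8 genes in each library, in CPM on a log axis, with WT EpiLCs in blue, KO EpiLCs in red and the mean of 3 libraries as a line. The WT and KO points of Mest, Sgce and Copg2 stand well apart, those of Peg10 almost touch at 237.4 and 237.6 CPM, and Asb4 and Klf14 lie near the bottom of the axis.

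The KO libraries held less RNA of the 6 genes that passed the filter on low counts, but 409 of the 471 other genes tested on chromosome 6 below 100 Mb also had negative log2 fold changes. Their median was −0.52, with medians of −0.48, −0.49 and −0.54 in the 3 replicate pairs, against −0.12 for 296 genes of chromosome 6 from 100 Mb on and 0.0014 for all 15746 genes tested. All 6 genes had an adjusted p below 0.1 and were lower in KO EpiLCs, as did 12.5% of all genes tested and 57.7% of the other genes of chromosome 6 below 100 Mb. Mest and Sgce also passed an absolute log2 fold change of 1, as did 6.21% of all genes tested in either direction, 3.3% lower in KO, and 14% of that chromosomal background in the same direction. Peg10 and Nap1l5 did not keep an adjusted p below 0.1 in every fit without 1 library. Nothing is read from these counts, since the contrast belongs to the choice of the genes. In bulk RNA, fewer cells that express a gene and less RNA of it per cell cannot be told apart.

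Mest (ENSMUSG00000051855.16, plus strand, chr6:30723546-30752058) encodes a predicted α/β-hydrolase of mesodermal and other fetal tissues. It stood at 531, 428 and 403 CPM in the WT libraries and at 129, 126 and 132 CPM in the KO libraries. The groups did not overlap, the KO libraries were all within a few CPM of each other, and the first WT library was the highest. The means were 454 ± 67.7 CPM and 129 ± 2.87 CPM (SD, n = 3 each), so that 28.4% of the WT level was left. The log2 fold change was −1.82 ± 0.11 (SE), which is −1.30 relative to the chromosomal shift. Of the 471 other genes, 11 had a lower value, Mir335 among them. Relative to the shift of its own pair, Mest was at −1.57, −1.27 and −1.07 in replicate pairs 1, 2 and 3, and over all 15 alternatives of processing and reference it lay between −1.39 and −1.18. The 20 nearest tested genes had a median of −0.61, which left Mest at −1.20 against its immediate surroundings.

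Mir335, a microRNA gene within the Mest transcription unit on the same strand, had 21, 25 and 34 counts in the WT and 6, 7 and 8 counts in the KO libraries, with no overlap. Its log2 fold change was −1.89 ± 0.41 (SE), given like that of Mest as a description. Libraries of total RNA of this kind cover longer transcripts over the 98 annotated bases, so that reads of a Mir335 precursor and of Mest cannot be told apart, and the mature microRNA was not measured. The mature arms are shown because a seed identifies the targets of a microRNA, with bases 2 to 8 in capitals, from RefSeq (GRCm38.p6).
mmu-miR-335-5p: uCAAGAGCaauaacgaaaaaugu
mmu-miR-335-3p: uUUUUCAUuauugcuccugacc

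Peg10 (ENSMUSG00000092035.9, plus strand, chr6:4747306-4760517) is a retrotransposon-derived gene that the placenta requires. Its WT libraries lay close together at 237.6, 241.3 and 258.3 CPM, while its KO libraries were spread over 187, 132 and 237.4 CPM. The groups were separated only by the distance from 237.4 to 237.6 CPM, and KO replicate 2 was the lowest. The means were 246 ± 11.1 CPM and 185 ± 52.8 CPM, and 75.4% of the WT level was left. The log2 fold change was −0.41 ± 0.14 (SE), which is 0.11 above the shift, with 0.13, −0.38 and 0.42 relative to the shift in pairs 1, 2 and 3. The log2 fold change of Peg10 was −0.37 without WT replicate 3, −0.41 without KO replicate 1 and −0.21 without KO replicate 2. Without KO replicate 3 its log2 fold change was −0.62, and its distance from the shift changed sign to −0.12.

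The summed primitive endoderm markers followed the order of Peg10 over the KO libraries, but not over the WT libraries. The summed neural markers (22.6, 22.45 and 24.2 CPM in KO replicates 1, 2 and 3) and Sgce had the same KO order. The summed pluripotency, trophoblast and fibroblast markers did not. The summed level of 7 primitive endoderm markers was 8.43, 6.39 and 7.24 CPM in WT replicates 1, 2 and 3 and 14.4, 6.56 and 18.6 CPM in KO replicates 1, 2 and 3. Of the 4 of these markers that were tested, Gata6 (log2 fold change 1.35, adjusted p = 0.012) and Pdgfra (0.94, adjusted p = 0.099) rose in edgeR's quasi-likelihood test. No marker of this list was at 0 in all libraries, and its part in the values of Peg10 was not tested. The summed level of 8 trophoblast markers was 18.6 to 21.6 CPM in WT and 18.4 to 22.6 CPM in KO libraries, and none of these was at 0 in all libraries either.

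Sgce (ENSMUSG00000004631.16, minus strand, chr6:4672057-4747207) encodes ε-sarcoglycan, a membrane glycoprotein, and starts head to head with Peg10. It was at 15.8, 17.6 and 19.5 CPM in the WT and at 8.75, 7.17 and 10 CPM in the KO libraries. The groups did not overlap. The means were 17.6 ± 1.87 CPM and 8.64 ± 1.42 CPM, so that 49.1% of the WT level was left. The log2 fold change was −1.03 ± 0.17 (SE), which is −0.51 relative to the shift, and 64 of the 471 other genes had a lower value. Each pair lay below its own shift, at −0.37, −0.80 and −0.42, and the range over 15 alternatives was −0.64 to −0.37. The head-to-head genes thus had different values in the same KO libraries. For each count of Sgce there were 15.1, 13.7 and 13.3 counts of Peg10 in the WT libraries and 21.4, 18.4 and 23.7 in the KO libraries, a ratio that was higher in every KO library and that does not depend on library size.

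Nap1l5 (ENSMUSG00000055430.5, minus strand, chr6:58882218-58884061) is an intronless gene of the nucleosome assembly protein family that lies wholly within the ubiquitin ligase gene Herc3, on the opposite strand. It was at 10.3, 7.03 and 12.9 CPM in the WT and at 5.67, 6.02 and 6.09 CPM in the KO libraries. The groups did not overlap, and WT replicate 2 came closest to the KO libraries. The means were 10.1 ± 2.95 CPM and 5.93 ± 0.225 CPM, and 58.8% of the WT level was left. The log2 fold change was −0.78 ± 0.22 (SE), which is −0.26 relative to the shift, with −0.38, 0.27 and −0.54 in the 3 pairs. Without WT replicate 3 the log2 fold change was −0.56 and the distance from the shift −0.04. Herc3 had a log2 fold change of −0.57 ± 0.11 (adjusted p = 8.8e-04). There were 0.158, 0.113 and 0.181 counts of Nap1l5 for each count of Herc3 in the WT and 0.128, 0.145 and 0.126 in the KO libraries, which overlap. The sources used here do not state whether the counting used the strand. Without it, reads of Nap1l5 and of Herc3 over the same bases could not be told apart.

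Copg2 (ENSMUSG00000025607.16, minus strand, chr6:30741505-30873729), a γ subunit of the coatomer that coats Golgi vesicles, is the neighbour of Mest. Both genes share 10554 bases on opposite strands. Copg2 was at 147, 177 and 167 CPM in the WT and at 91.3, 101 and 109 CPM in the KO libraries, without overlap. The means were 164 ± 15.3 CPM and 100.5 ± 8.80 CPM, so that 61.4% of the WT level was left. The log2 fold change was −0.70 ± 0.10 (SE), which is −0.18 relative to the shift, within the interquartile range of −0.75 to −0.27 of the other genes. All 3 pairs were slightly below their shift, at −0.21, −0.31 and −0.08. Mest and Copg2 thus moved unequally. For each count of Copg2 there were 3.62, 2.42 and 2.41 counts of Mest in the WT and 1.41, 1.24 and 1.21 in the KO libraries. Whether the counting used the strand is not given in the sources used here, and without it reads of the shared bases could not be assigned to one gene.

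Ppp1r9a (ENSMUSG00000032827.16, plus strand, chr6:4902745-5165667) encodes neurabin-1, which binds protein phosphatase 1 and actin. Its levels were 79.3, 68.3 and 105 CPM in the WT and 54.0, 55.6 and 67.6 CPM in the KO libraries, and WT replicate 2 almost met KO replicate 3. The means were 84.3 ± 19.03 CPM and 59.1 ± 7.45 CPM, with 70.1% of the WT level left. The log2 fold change was −0.52 ± 0.14 (SE), equal to the chromosomal shift within 0.0046, and 241 of the 471 other genes had a lower value. The pairs were at −0.08, 0.20 and −0.09 relative to the shift. Without WT replicate 3 the log2 fold change was −0.32 and the distance from the shift 0.19, and over all 15 alternatives this distance ran from −0.12 to 0.19.

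Asb4 and Klf14 did not pass the filter on low counts. Asb4 (ENSMUSG00000042607.16, plus strand, chr6:5383386-5433026), which encodes an ankyrin repeat and SOCS box protein, had 3, 1 and 4 counts in the WT and 5, 6 and 7 in the KO libraries. It was the only one of the 8 genes with more counts in KO EpiLCs, 18 against 8 in all. The ratio relative to library size was 2.24, with an exact 95% interval of 0.928 to 5.96 that covers counting error only. Klf14 (ENSMUSG00000073209.5, minus strand, chr6:30932958-30936013), an intronless Krüppel-like transcription factor gene, had 7, 4 and 4 counts in the WT and 2, 1 and 4 in the KO libraries, a ratio of 0.465 with an interval of 0.160 to 1.21. A difference was not detectable at this depth for either, where 3 counts are worth 0.204 to 0.273 CPM.

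**Figure D2:**
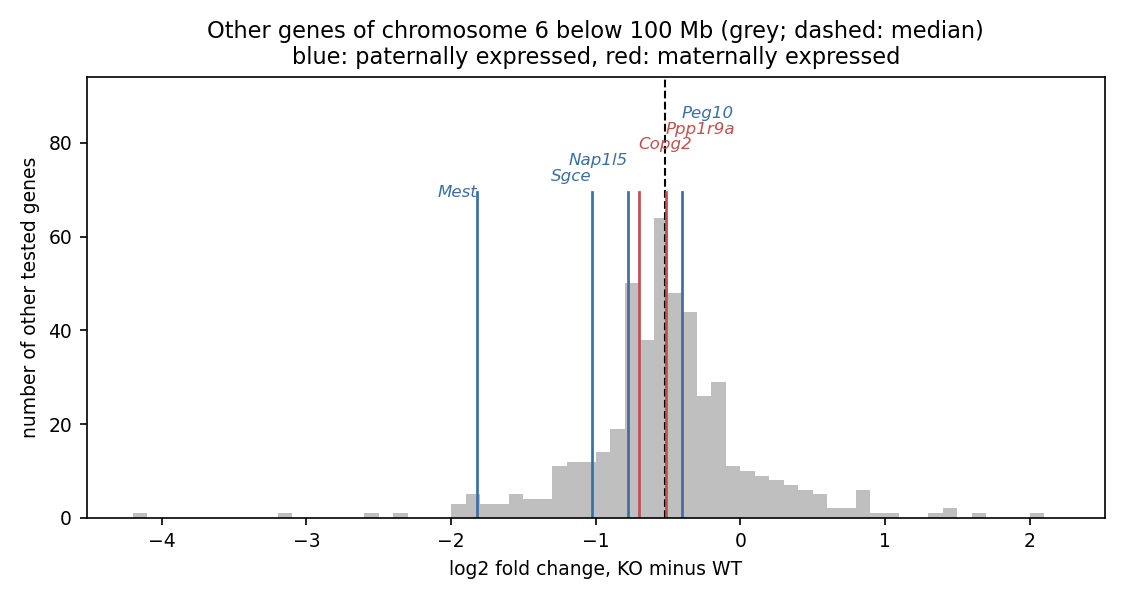
Number of other genes tested on chromosome 6 below 100 Mb (grey bars, n = 471) by log2 fold change, KO minus WT, with their median as a dashed line and the 6 genes that passed the filter as vertical lines (blue, paternally expressed; red, maternally expressed). Mest at −1.82 lies in the lower tail, Sgce at −1.03 below the interquartile range, and Ppp1r9a, Peg10 and Copg2 within it.

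By parental allele, the 4 paternally expressed genes had a median log2 fold change of −0.90, and 3 of them lay below the shift and 1 above it. The 2 maternally expressed genes that were tested had a median of −0.61, with Copg2 below the shift and Ppp1r9a equal to it within 0.0046. Relative to the median of the 20 nearest tested genes, Peg10 was at −0.0003 and Ppp1r9a at −0.11. On that reference Copg2 was at −0.09, Nap1l5 at −0.24, Sgce at −0.62 and Mest at −1.20. Members of the same cluster differed among themselves. Around Peg10, Sgce was below the shift in 3 of 3 pairs, Peg10 in 1 and Ppp1r9a in 2. At the Mest locus, both Mest and Copg2 were below it in 3 of 3 pairs, by unequal amounts. Set against each other, 1 count of Peg10 was matched by 2.23, 1.77 and 1.56 counts of Mest in the WT libraries and by 0.689, 0.955 and 0.555 in the KO libraries. In KO EpiLCs Peg10 was at 27.8 RPKM and Mest at 16.0 RPKM by the length of all annotated exons, and at 28.2 RPKM and 102 RPKM by that of the canonical transcript, so that which of them was higher there depends on the length used.

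**Figure D3:**
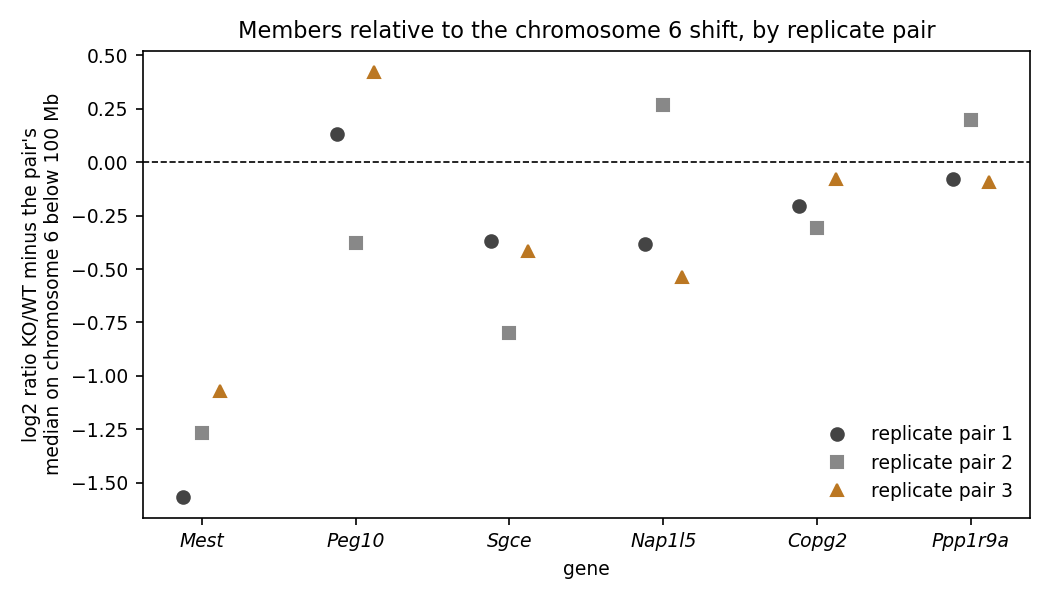
Log2 ratio KO/WT of the 6 tested genes in each replicate pair (marker shape), minus the median of the other genes of chromosome 6 below 100 Mb in that pair (dashed line at 0). Mest, Sgce and Copg2 lie below the line in all 3 pairs, and Peg10, Nap1l5 and Ppp1r9a have pairs on both sides.

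Genes whose lowest coordinate lies within 500 kb of that of one of the 8 were compared in the same fit. They were taken whatever their strand or imprinting. Of 23 such genes tested, 11 fell, 0 rose and 12 did not pass an adjusted p below 0.1 in edgeR's quasi-likelihood test. Of all genes tested, 12.5% fell, and 24.3% passed in either direction. Of the other genes on chromosome 6 below 100 Mb, which include these neighbours, 57.7% fell, and 61.1% passed in either direction. The median of the 23 neighbours was −0.57, and −0.38 without WT replicate 1. In DESeq2 10 fell and 0 rose, and at an unadjusted p below 0.05 the counts were 11 and 0 with either tool. Around Mest, 7 of 10 fell, Mir335 among them, whose reads cannot be separated from those of Mest. The 11 and the 7 thus include Mir335, whose change is a description and not a result about a separate neighbour. Zc3hc1, a nuclear zinc finger protein (−0.73, adjusted p = 5.4e-05), Tmem209, a nuclear envelope protein (−0.64, adjusted p = 1.1e-04), Mkln1, of a ubiquitin ligase complex (−0.58, adjusted p = 5.9e-04), and Klhdc10, a kelch protein (−0.51, adjusted p = 7.7e-04), lay between −0.21 and 0.01 relative to the shift. The long noncoding Lncpint (−0.78, adjusted p = 0.043) also fell. Ssmem1 (−0.56), the centrosomal gene Cep41 (−0.18) and the pseudogene Gm13835 (−0.18) did not pass.

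Around Peg10, 1 of 9 neighbours fell, the paraoxonase gene Pon3 (−0.88, adjusted p = 0.068, edgeR's quasi-likelihood test). Of all genes tested 12.5% fell, and of the other genes of chromosome 6 below 100 Mb 57.7% fell. The median of the 9 was −0.43, with 4 below the chromosomal shift and 5 above it. Their mean WT levels ran from 0.90 CPM (Gm26556, SE 0.60) to 29.0 CPM (Casd1, SE 0.13). Zc3hc1 near Mest was at 164.5 CPM (SE 0.10), so the numbers of calls are not compared between the clusters. Casd1, an enzyme of sialic acid modification (−0.15), Pon2 (−0.03), the metabolic kinase gene Pdk4 (0.31) and the dynein gene Dync1i1 (0.37) lay above the chromosomal shift and did not pass, nor did the collagen gene Col1a2 (−0.78). The loci Gm26814 (−0.43), Gm26736 (−0.84) and Gm26556 (−0.69) lie inside Ppp1r9a and did not pass either. Around Nap1l5, 3 of 4 neighbours fell. These were the transporter gene Abcg2 (−0.57, adjusted p = 3.0e-04), Herc3 and Tigd2 (−0.36, adjusted p = 0.037), while Fam13a (−0.17) did not pass.

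**Figure D4:**
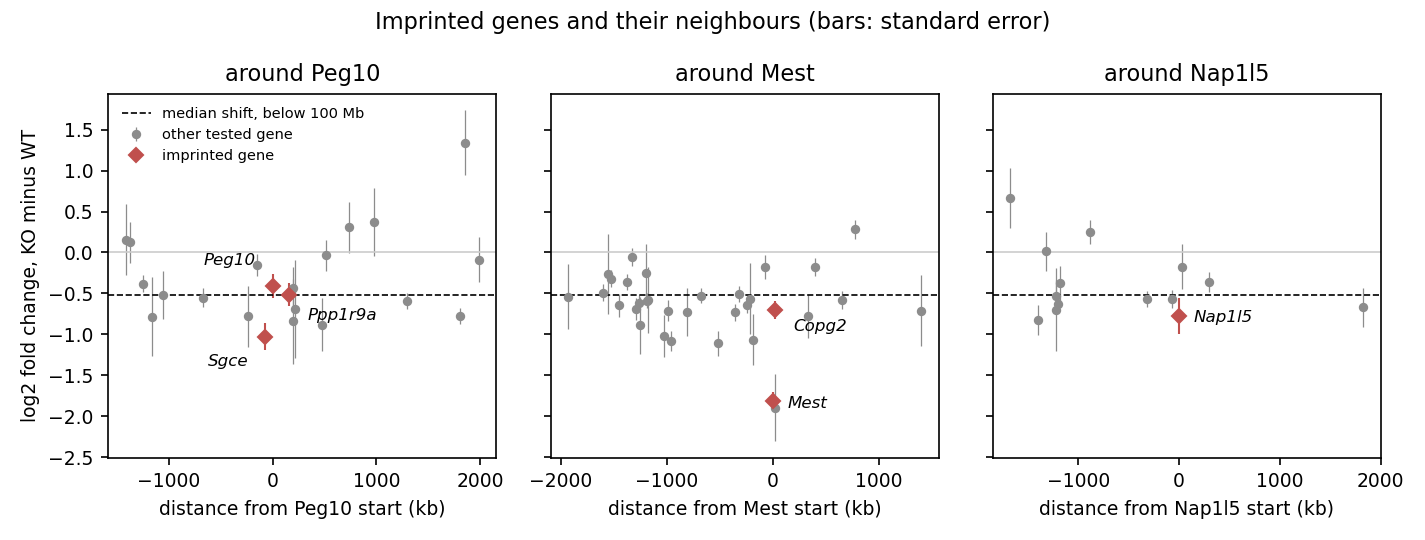
Log2 fold change, KO minus WT, with its standard error, against distance in kb from the start of Peg10, Mest or Nap1l5. A start is here the lowest coordinate of a gene, whatever its strand. Red diamonds are the imprinted genes of the set that were tested. Grey points are all other genes tested, whatever their imprinting, and the dashed line is the chromosomal median of −0.52. Mest and the grey point of Mir335 beside it lie at the bottom of the middle panel.

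Imprinted genes on other chromosomes had values on both sides of 0. Of 42 listed, 32 were tested, with a median log2 fold change of 0.08, and 7 fell, 7 rose and 18 did not pass an adjusted p below 0.1 in edgeR's quasi-likelihood test, against 12.5% lower and 11.8% higher of all genes tested. Among 17 paternally expressed genes the median was 0.16, and Slc38a4, an amino acid transporter (2.53, adjusted p = 1.4e-10), Peg3, a zinc finger gene (1.32, adjusted p = 4.3e-06), its neighbour Usp29 (1.07, adjusted p = 7.7e-05) and 1 other rose while Nnat, a small membrane proteolipid (−0.77, adjusted p = 0.0024), and 1 other fell. Among 15 maternally expressed genes the median was −0.19. Phlda2 (−1.33, adjusted p = 3.2e-05) and the cell cycle inhibitor Cdkn1c (−0.82, adjusted p = 6.9e-05), neighbours in 1 cluster that both restrain growth, were among 5 that fell, and Zim1 (1.58, adjusted p = 0.026) and the noncoding H19 (0.77, adjusted p = 0.0068) among 3 that rose. Meg3 (−0.52), Rian (−0.55) and Mirg (−0.47) were the others that fell. These are counts of genes, and genes of 1 cluster are not separate loci.

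**Figure D5:**
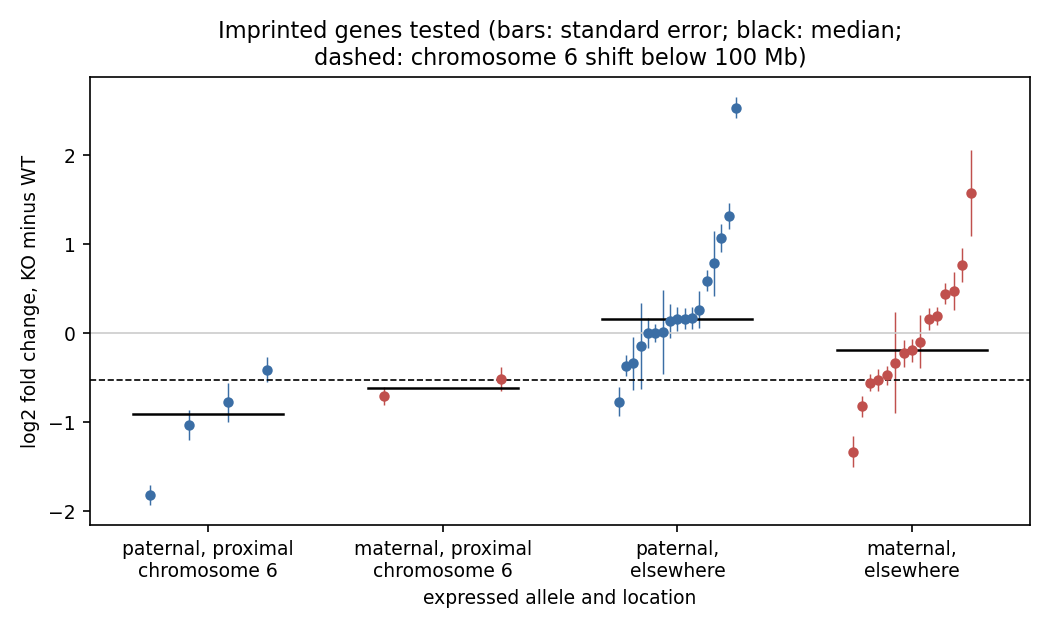
Log2 fold change, KO minus WT, with its standard error, of each imprinted gene tested, by expressed allele and location, with the median of each class as a black line and the chromosome 6 shift as a dashed line. The 6 genes of proximal chromosome 6 are all below 0, while the 32 elsewhere lie on both sides of it.

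Of 23 genes of imprint maintenance and DNA methylation, all of which were tested, 1 fell, 5 rose and 17 did not pass, against 12.5% lower and 11.8% higher of all genes tested. Their median was 0.20, and 0.11 without WT replicate 2. The dioxygenase gene Tet1 (0.42, adjusted p = 0.017), the helicase gene Hells (0.40, adjusted p = 0.025) and the maintenance methyltransferase gene Dnmt1 (0.23, adjusted p = 0.095) were among those that rose, with Arid4a (0.33, adjusted p = 0.097) and Eed (0.26, adjusted p = 0.099). Tet3, which itself lies on chromosome 6 below 100 Mb, was the one that fell (−0.34, adjusted p = 0.086, edgeR's quasi-likelihood test). Zfp57, whose word is marked in the promoters above, was at 58.2 ± 8.12 CPM in WT and 70.0 ± 8.57 CPM in KO EpiLCs (log2 fold change 0.27, adjusted p = 0.14) and its partner Trim28 at 0.20 (adjusted p = 0.18).

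The genes most like each of the 6 over the 6 libraries were sought by the root mean square difference of log2 CPM profiles centred on their mean. These log2 CPM used a prior count of 2, which shrinks the differences of genes at low counts. Mest was closest to Ccdc166 (0.0587), Prss50 (0.0963) and Kcns1 (0.102), all on other chromosomes. Kcns1 was low, at 0.82 to 1.19 CPM in WT and 0.15 to 0.23 CPM in KO libraries, with a log2 fold change of −2.36. Aass (0.0568) and Ttc21a (0.0673) were among the 3 genes closest to Peg10. Sgce was closest to Hspa1b (0.0387), Zfp516 (0.0808) and Gm7049 (0.0857), and Nap1l5 to Zfp800 (0.0909), Fam199x (0.107) and Ccdc9b (0.110). For Copg2 they were Slc6a6 (0.0398), Ddx19b (0.0514) and Capn1 (0.0525), and for Ppp1r9a Cox7a1 (0.0593), Ano10 (0.0819) and Myh7b (0.0838). Of the genes named here, Aass, Zfp800 and Slc6a6 lie on chromosome 6. None of the 6 had another of them among its 3 closest genes. Nap1l5 and Ppp1r9a were the most alike among them, at 0.167, where Ppp1r9a ranked 30 among 15745 genes compared with Nap1l5.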

How the data were processed

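RNA-seq was performed on 3 WT and 3 KO EpiLC libraries. After Fastp trimming and FastQC checks, the authors ran STAR (two-pass) on GRCm39 and deposited its raw counts per gene, which are not normalized. The release of the annotation, whether counting was stranded and the treatment of reads with several matches are not given in the sources used here. Of 55416 identifiers, 54749 were matched to GENCODE M39 for symbols and positions, and the other 667 held 0.0602% of the counts.

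Counts were tested in R 4.3.3 with edgeR 4.0.16 (TMM factors 0.974 to 1.02, filterByExpr with a minimum count of 10, which left 15746 genes, quasi-likelihood test, genotype as the only term, Benjamini-Hochberg adjustment over all genes tested). Genes with an adjusted p below 0.1, the study's threshold, were called. CPM are relative to TMM library sizes. The replicate ratios of the 8 genes used CPM without a prior count. The chromosome medians subtracted from them used log2 CPM with a prior count of 2. RPKM used the union of GENCODE exons. The precision of each value is that of the standard error beside it, and the biological coefficient of variation was 11.7%. Libraries with the same number deviated together (r = 0.253, 0.302 and 0.124 over 13228 genes, against −0.228 to −0.0386 for different numbers), and the series' design text calls the replicates paired, so a replicate block was an alternative.

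The members and lists were chosen with earlier results of these data known. Genes were named by rule (members, Pou3f1, tested neighbours within 500 kb, up to 8 called genes with the largest changes in each other list, and the 3 genes most like each member), and some that meet it are not reported here. Alternatives were DESeq2 1.42.0, RLE factors, no or a stricter filter, the block, each library left out, and other references for the shift. Marker lists were formative and general pluripotency (6 tested, 3 rose, 3 did not pass), trophoblast (4 tested, Eomes rose, Krt7 fell), primitive endoderm (4 tested, 2 rose), fibroblast (3 tested, Thy1 fell; summed 11.1 to 20.2 CPM in WT and 7.41 to 12.6 CPM in KO libraries) and neural (Sox1 and Tubb3 tested, both fell; 31.6 to 39.9 and 22.5 to 24.2 CPM). The script was tested on simulated data.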

Additional observations from a re-analysis of the deposited data

How the results depend on the processing

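Calls at an adjusted p below 0.1 numbered 3833, and between 3058 and 3790 without 1 library. With an absolute log2 fold change from 1 upwards there were 978, between 903 and 1056 without 1 library, and 584 under a minimum of 10 counts in every library, which tests fewer genes. DESeq2 called 3292 and 854. The replicate block for the pairing gave 4764 and 1016 calls and a chromosome 6 shift of −0.53. Without 1 library the shift ran from −0.54 to −0.51, the median of neighbours from −0.56 to −0.38 (the latter without WT replicate 1), that of imprinted genes elsewhere from 0.04 to 0.09 and that of maintenance genes from 0.11 (without WT replicate 2) to 0.22, and the cause was not tested. Without 1 library the log2 fold change of Peg10 ran from −0.62 to −0.21 and that of Nap1l5 from −0.975 to −0.555. Over the 15 alternatives the distance from the shift kept its sign for Mest, Sgce, Nap1l5 and Copg2, and changed it in 2 for Peg10 and in 6 for Ppp1r9a. The lowest levels are limited by depth, as for Asb4 and Klf14, and p-values measure the spread between 3 libraries of 1 line or clone per group.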
